A study of Homo sapiens with 6 samples.

Results

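The BCL2 family, the caspases, the inhibitor of apoptosis proteins (IAPs) and the death receptor pathway make up the core of the apoptosis machinery, and 37 of their genes, chosen by name, were followed. They are 37 of the 60483 genes counted in each library. The study sequenced RNA of DLD-1, a colorectal adenocarcinoma cell line, in 3 libraries of AHR siRNA and 3 of control siRNA to look for genes under the control of AHR. The AHR protein, the aryl hydrocarbon receptor, is a transcription factor switched on by small molecules. All 6 samples were the same line, grown in RPMI medium with fetal bovine serum, so the results describe 1 cell line. The sources used here name neither the siRNA sequences nor the time between transfection and harvest. Nothing in the labels says whether replicates were separate cultures, so the spread behind the p-values may be only technical.

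Apoptosis runs along a pair of routes that end in caspases, proteases that dismantle the cell. In the mitochondrial route, BH3-only proteins sense damage and neutralise the survival members of the BCL2 family or engage the pore-forming members BAX and BAK1, which release cytochrome c to build the apoptosome on APAF1. In the death receptor route, ligands such as TRAIL gather FADD and caspase-8 at the cell membrane, and IAPs and the CFLAR protein hold the caspases back. Colon epithelium sheds its oldest cells by such routes, and colorectal tumours commonly shift the balance towards survival.

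The libraries held 11567736 to 12937058 counts in AHR siRNA and 13585529 to 15037145 in control siRNA. AHR itself stood at 95.8, 87.4 and 95.0 CPM in AHR siRNA and at 117, 144 and 132 CPM in control siRNA, or 70.8% of control (log2 fold change -0.50, edgeR adjusted p = 1.98e-05). Other annotated genes share 32.7% of the AHR exonic bases, among them AC019117.2 on the same strand. A larger absolute log2 fold change than that of AHR was found for 39.8% of tested genes. Effects of the siRNA on other targets cannot be told apart from loss of AHR in this design. Levels are in CPM, counts scaled to library size with TMM factors, and genes are called higher or lower where the adjusted p over all 14900 tested genes is under 0.05. Epithelial markers were abundant, with 10 listed genes summing to 8032 to 8354 CPM in AHR siRNA and 11630 to 13150 CPM in control siRNA, although CDX1 and LGALS4 were near the floor. Lists of fibroblast, leukocyte and endothelial markers summed to at most 7.05 CPM in any library, with DCN, LUM, THY1, MS4A1 and KDR at 0 in all 6.

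Of the 37 genes, 36 passed the filter on low counts, and 24 of these (66.7%) were called: 10 higher and 14 lower in AHR siRNA cells. Over all tested genes, 60.1% were called, 30.0% higher and 30.1% lower, so the share of called apoptosis genes was near the background. Their changes were also no larger than usual, with a median absolute log2 fold change of 0.32 against 0.39 over all tested genes, and a median of -0.05 against 0.01. For 22 of the 36 genes all AHR siRNA libraries lay on one side of all control libraries, as they did for 63.7% of all tested genes. A fold of at least 1.5 was reached by 11 called genes of the 36 (5 higher, 6 lower), against 30.4% of all tested genes that were called with such a fold. Scaling by library totals alone turned the balance of calls, with 14 genes higher and 7 lower, and put the median of all genes at a log2 fold change of 0.15 instead of 0.01. In bulk RNA, a change in the share of cells that express a gene cannot be told apart from a change within each cell.

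**Figure D1:**
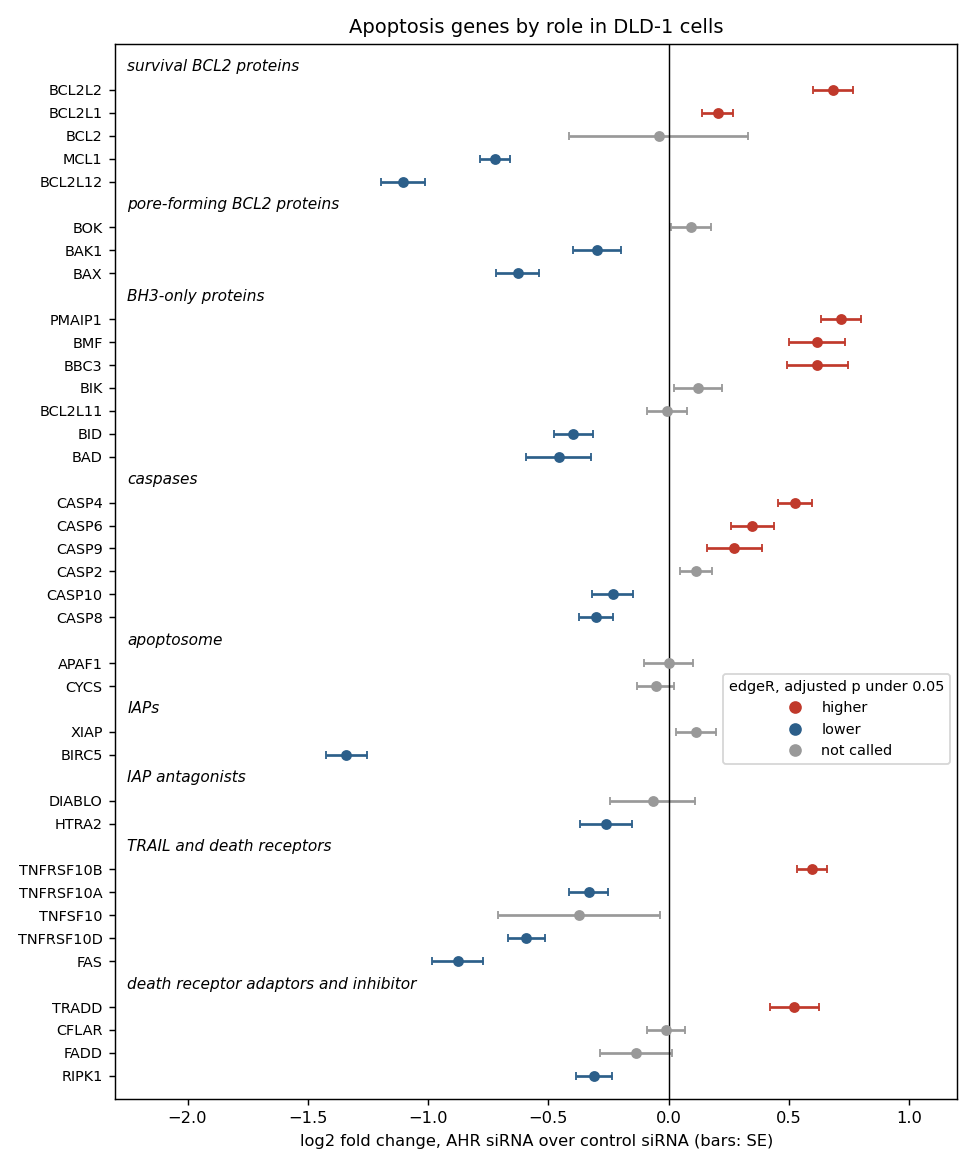
Log2 fold change of 36 apoptosis genes in AHR siRNA over control siRNA libraries, grouped by role, with the SE as bars (3 libraries per group). Every role with at least 3 genes held both called and uncalled genes, BIRC5 fell furthest at -1.34 and PMAIP1 rose most at 0.72.

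Promoters were searched because AHR, with its partner ARNT, binds DNA at a short core, GCGTG. Of the 37 genes, 28 were found in a RefSeq promoter table (GRCh38.p14), and the 250 bases before the start were searched on both strands. The core was present for 18 of these 28 (64.3%), against 52.9% of 10720 tested genes and 36.2% of all 27305 genes in the table. It was found for 5 of 7 genes called higher, 6 of 9 called lower and 7 of 11 not called, and for 51.2%, 56.3% and 51.3% of all tested genes called higher, lower and not called. These windows are shown because they are the match nearest a start in the 3 higher and 3 lower genes of smallest p with a match and with sequence shown here, and capitals mark the core or its reverse complement CACGC.
PMAIP1, chr18:59899961-59899985, plus strand: ctggacaaaaGCGTGgtctctggcg
BMF, chr15:40108925-40108949, minus strand: tcagtcctcgGCGTGacgcgcaggg
CASP6, chr4:109703497-109703521, minus strand: caactggcccCACGCtcgggggcag
BCL2L12, chr19:49665903-49665927, plus strand: tgcaaattgaGCGTGcacccagcgt
FAS, chr10:88991207-88991231, plus strand: gttgaggtggGCGTGgggtgcggac
BID, chr22:17774493-17774517, minus strand: gcgggcccggGCGTGgggggccgaa
The matches lay 21 (PMAIP1), 56 (BMF), 62 (CASP6), 16 (BCL2L12), 210 (FAS) and 34 (BID) bases before an annotated start. Genes that rose and genes that fell both carried these letters, and binding was not measured.

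The survival genes of the BCL2 family moved in opposite directions. MCL1, which encodes a short-lived survival protein that binds BAK1 and several BH3-only proteins, stood at 120.2, 119 and 124 CPM in AHR siRNA and at 200.5, 197 and 202 CPM in control siRNA. All 3 AHR siRNA libraries lay far below the control libraries, and MCL1 fell to 60.6% of control (log2 fold change -0.72, SE 0.06, edgeR adjusted p = 1.11e-08). BCL2L2, which encodes the survival protein BCL-w, stood at 43.7, 44.1 and 49.3 CPM in AHR siRNA and at 26.6, 28.8 and 30.0 CPM in control siRNA. It rose to 161% of control without overlap (log2 fold change 0.68, SE 0.08, edgeR adjusted p = 9.66e-07), although 24.3% of its exonic bases are shared with PPP1R3E and with the readthrough gene BCL2L2-PABPN1. BCL2L1, which encodes BCL-xL, was 161 ± 3 CPM in AHR siRNA and 140.2 ± 5.3 CPM in control siRNA (SD, n = 3 each), a rise to 115% (edgeR adjusted p = 0.0104). After control siRNA replicate 3 was left out, it no longer passed (log2 fold change 0.17, edgeR adjusted p = 0.0852). Reads of the opposite-strand RNA ABALON, which shares 43.0% of the BCL2L1 exonic bases and stood at 0.822 CPM in AHR siRNA and 1.42 CPM in control siRNA, cannot be told apart from BCL2L1 there, since the strand setting of the counting is not known.

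BCL2L12, which encodes a BCL2-related protein reported to restrain caspases, fell furthest of the BCL2 family genes among the 37. It stood at 31.1, 36.7 and 34.7 CPM in AHR siRNA and at 83.3, 71.3 and 65.7 CPM in control siRNA, a fall to 46.6% of control (log2 fold change -1.10, SE 0.09, edgeR adjusted p = 5.60e-09). Of its exonic bases, 33.1% overlap IRF3 on the opposite strand, which did not pass the test at 114 CPM in AHR siRNA and 106 CPM in control siRNA (log2 fold change 0.11, edgeR adjusted p = 0.182). BCL2, the founding member, was barely detected, with 8, 10 and 11 counts in AHR siRNA and 9, 10 and 12 counts in control siRNA. Its difference was not resolvable at this depth (log2 fold change -0.04, SE 0.37, edgeR adjusted p = 0.931).

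Of the pore-forming genes, BAX and BAK1 fell and BOK did not pass the test. BAX, whose protein forms the pore in the outer mitochondrial membrane, stood at 44.1, 52.4 and 40.8 CPM in AHR siRNA and at 74.8, 65.3 and 72.3 CPM in control siRNA. It fell to 64.7% of control with no overlap (log2 fold change -0.63, SE 0.09, edgeR adjusted p = 5.76e-06). BAK1, the other main pore former, averaged 20.6 ± 2.5 CPM in AHR siRNA and 25.3 ± 1.3 CPM in control siRNA (SD, n = 3 each), or 81.4% (edgeR adjusted p = 0.0156). This call was lost with upper-quartile factors (edgeR adjusted p = 0.0740), with library totals alone (0.202) and without AHR siRNA replicate 3 (0.118). BOK, a less studied pore former, averaged 46.4 ± 3.4 CPM in AHR siRNA and 43.6 ± 3.3 CPM in control siRNA (SD, n = 3 each; edgeR adjusted p = 0.353).

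Among the BH3-only genes, the 3 that rose were PMAIP1, BMF and BBC3. PMAIP1, which encodes NOXA, a protein that binds MCL1, stood at 46.3, 42.4 and 41.0 CPM in AHR siRNA and at 27.8, 25.8 and 25.2 CPM in control siRNA. Each AHR siRNA library exceeded each control library, at 164% of control (log2 fold change 0.72, SE 0.08, edgeR adjusted p = 4.94e-07). BMF, whose protein responds to loss of attachment, averaged 15.8 ± 1.7 CPM in AHR siRNA and 10.3 ± 0.3 CPM in control siRNA (SD, n = 3 each), or 153% (edgeR adjusted p = 0.000141). BBC3, which encodes PUMA, a strong activator of BAX, averaged 13.7 ± 1.5 CPM in AHR siRNA and 8.93 ± 0.79 CPM in control siRNA (SD, n = 3 each), also 153% (edgeR adjusted p = 0.000351).

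The BH3-only genes that fell were BID and BAD. BID, whose protein is cut by caspase-8 and so links the receptor route to mitochondria, stood at 52.6, 52.6 and 48.2 CPM in AHR siRNA and at 74.8, 62.9 and 64.2 CPM in control siRNA, a fall to 76.0% (edgeR adjusted p = 0.000298). BAD, which survival kinases hold in check by phosphorylation, averaged 7.94 ± 1.18 CPM in AHR siRNA and 10.9 ± 0.7 CPM in control siRNA (SD, n = 3 each; edgeR adjusted p = 0.00702), and lost its call with library totals alone (edgeR adjusted p = 0.0552). Of the BAD exonic bases, 23.65% overlap GPR137 on the opposite strand, which stood at 37.8 CPM in AHR siRNA and 33.7 CPM in control siRNA. BCL2L11, which encodes BIM, a strong activator of BAX, stood at 28.9 ± 1.5 CPM in AHR siRNA and 29.1 ± 1.0 CPM in control siRNA (SD, n = 3 each; log2 fold change -0.01, SE 0.08, edgeR adjusted p = 0.940). BIK, whose protein acts at the endoplasmic reticulum, averaged 24.8 ± 2.8 CPM in AHR siRNA and 22.8 ± 2.0 CPM in control siRNA (SD, n = 3 each; edgeR adjusted p = 0.312). HRK had 8, 10 and 17 counts in AHR siRNA and 7, 8 and 2 counts in control siRNA, did not pass the filter and was not tested.

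**Figure D2:**
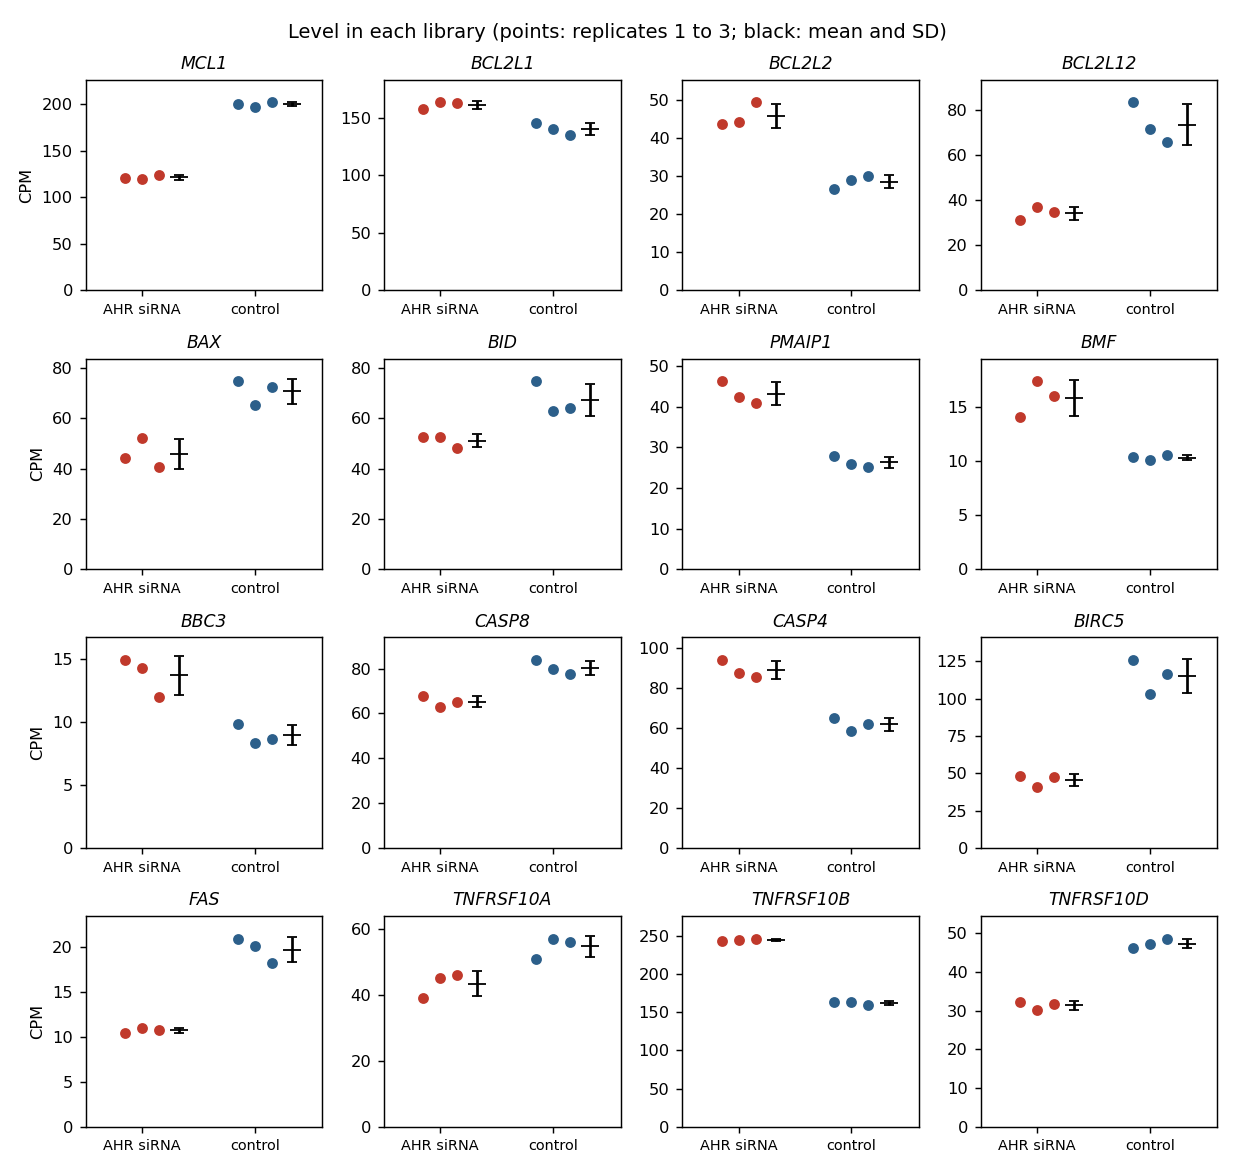
CPM of 16 apoptosis genes in each library of AHR siRNA (left, red) and control siRNA (right, blue), with the mean and SD in black (n = 3 each) and axes that start at 0. The panels show only called genes whose groups did not overlap. The groups were separate in this way for 22 of the 36 tested apoptosis genes and for 63.7% of all tested genes. TNFRSF10B stood at 243 to 246 CPM in AHR siRNA and at 159 to 163 CPM in control siRNA.

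Of the 6 caspase genes, 3 rose and 2 fell (83.3% called, against 60.1% of all tested genes), none by as much as 1.5-fold. CASP4, an inflammatory caspase that senses bacterial lipopolysaccharide inside the cell, had the largest change: 93.8, 87.4 and 85.2 CPM in AHR siRNA and 65.0, 58.5 and 61.6 CPM in control siRNA. It rose to 144% of control (log2 fold change 0.53, SE 0.07, edgeR adjusted p = 3.84e-06). CASP6, an executioner caspase that cuts lamins, averaged 31.7 ± 0.7 CPM in AHR siRNA and 24.9 ± 2.2 CPM in control siRNA (SD, n = 3 each), or 127% (edgeR adjusted p = 0.00210). CASP9, the initiator that the apoptosome activates, was called higher at 121% of control, although AHR siRNA replicate 1 at 18.9 CPM lay below control siRNA replicate 1 at 20.2 CPM. CASP9 also lost its call with no filter (edgeR adjusted p = 0.0529) and with the DESeq2 Wald test (0.0870). Its edgeR adjusted p was 0.0453 with all libraries (log2 fold change 0.27) but 0.259 after leaving out control siRNA replicate 3 (0.16), 0.173 after AHR siRNA replicate 2, 0.111 after AHR siRNA replicate 3 and 0.0914 after control siRNA replicate 2.

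The initiator caspases of the death receptor route were lower. CASP8 stood at 67.8, 62.7 and 65.3 CPM in AHR siRNA and at 83.8, 79.9 and 77.6 CPM in control siRNA, with no overlap and a fall to 81.1% (log2 fold change -0.30, SE 0.07, edgeR adjusted p = 0.000973). CASP10, its close relative in the same gene cluster, averaged 23.0 ± 0.8 CPM in AHR siRNA and 27.0 ± 0.4 CPM in control siRNA (SD, n = 3 each; edgeR adjusted p = 0.0244). With library totals alone, CASP8 (edgeR adjusted p = 0.0557) and CASP10 (0.391) lost their calls, and CASP10 also lost it with upper-quartile factors (0.131), with the DESeq2 Wald test (0.0610) and when AHR siRNA replicate 1 (0.0543) or AHR siRNA replicate 3 (0.0866) was left out. CASP2, which acts in genotoxic stress, did not pass the test at 133 ± 6 CPM in AHR siRNA and 122 ± 4 CPM in control siRNA (SD, n = 3 each; edgeR adjusted p = 0.143), but was called higher with upper-quartile factors (0.0167) and with library totals alone (0.00308). Library totals alone also brought BOK, BIK and XIAP past the threshold, as higher.

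The apoptosome genes did not pass the test. CYCS, which encodes cytochrome c, averaged 242 ± 18 CPM in AHR siRNA and 251 ± 24 CPM in control siRNA (SD, n = 3 each; edgeR adjusted p = 0.568), and its many processed pseudogenes leave its level uncertain. APAF1, the scaffold, averaged 32.2 ± 3.6 CPM in AHR siRNA and 32.2 ± 3.9 CPM in control siRNA (SD, n = 3 each; edgeR adjusted p = 0.995). The difference in APAF1 changed sign with the scaling and had an SE of 0.10 on the log2 scale.

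BIRC5 had the largest fall of the 36 tested genes. It encodes survivin, an IAP that is also a subunit of the chromosomal passenger complex, which corrects chromosome attachment in mitosis. BIRC5 stood at 48.0, 40.9 and 47.4 CPM in AHR siRNA and at 126, 103 and 117 CPM in control siRNA, a fall to 39.5% of control (log2 fold change -1.34, SE 0.09, edgeR adjusted p = 1.52e-10). The other subunits of that complex were lower as well: AURKB, its kinase, was at 40.0% of control, CDCA8 at 37.6% and INCENP at 70.2%. All 3 of 3 were called lower, against 30.1% of all tested genes. The 3 summed to 129 to 148 CPM in AHR siRNA libraries and 284 to 290 CPM in control siRNA libraries, and the part that fewer dividing cells play in the BIRC5 value was not tested.

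XIAP and DIABLO did not pass the test. XIAP, a direct inhibitor of caspases, averaged 42.4 ± 1.0 CPM in AHR siRNA and 39.1 ± 3.9 CPM in control siRNA (SD, n = 3 each; log2 fold change 0.11, SE 0.08, edgeR adjusted p = 0.256). DIABLO, which encodes the XIAP antagonist SMAC, was at 5.93 ± 1.22 CPM in AHR siRNA and 6.20 ± 0.84 CPM in control siRNA (SD, n = 3 each; edgeR adjusted p = 0.760). Of its exonic bases, 60.8% are shared with other annotated entries, which can take reads from its count. Among them is a further same-strand entry that is also named DIABLO. HTRA2, a mitochondrial protease that also removes IAPs, was called lower at 83.5% of control (edgeR adjusted p = 0.0471), with overlapping groups at 20.5 to 24.6 CPM in AHR siRNA and 23.1 to 31.4 CPM in control siRNA. It failed under 9 of the 14 alternatives at the same threshold, among them leaving out control siRNA replicate 1 (log2 fold change -0.15 instead of -0.26, edgeR adjusted p = 0.198), AHR siRNA replicate 3 (0.180), AHR siRNA replicate 1 (0.0884) or control siRNA replicate 3 (0.0745). Exons of HTRA2 overlap AUP1 and LOXL3 on the opposite strand, and both were lower too (log2 fold changes -0.19 and -0.44, edgeR adjusted p = 0.0219 and 0.00384).

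Of the TRAIL receptor genes among the 37, TNFRSF10B rose and TNFRSF10A and TNFRSF10D fell. TNFRSF10B, which encodes DR5, stood at 243, 245 and 246 CPM in AHR siRNA and at 163, 163 and 159 CPM in control siRNA. It rose to 151% of control with a narrow spread in both groups (log2 fold change 0.60, SE 0.06, edgeR adjusted p = 1.16e-07). TNFRSF10A, which encodes the other death-inducing TRAIL receptor DR4, stood at 38.9, 45.0 and 46.0 CPM in AHR siRNA and at 50.9, 56.9 and 56.0 CPM in control siRNA. It fell to 79.4% without overlap (edgeR adjusted p = 0.00170) and lost its call with library totals alone (edgeR adjusted p = 0.0749). TNFRSF10D, a decoy receptor with a truncated death domain, stood at 32.2, 30.2 and 31.9 CPM in AHR siRNA and at 46.1, 47.3 and 48.6 CPM in control siRNA, a fall to 66.3% (log2 fold change -0.59, SE 0.08, edgeR adjusted p = 1.92e-06). These neighbouring genes are close paralogs, and how multiply mapped reads were treated is not stated, so their counts may share reads.

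FAS, the receptor for FAS ligand, fell by more than any TRAIL receptor. It stood at 10.44, 10.96 and 10.72 CPM in AHR siRNA and at 20.86, 20.02 and 18.15 CPM in control siRNA, or 54.4% of control (log2 fold change -0.88, SE 0.11, edgeR adjusted p = 8.74e-07). TNFSF10, the gene of TRAIL itself, had only 16, 18 and 14 counts in AHR siRNA and 23, 31 and 11 counts in control siRNA. With an SE of 0.34 around a log2 fold change of -0.37, a difference was not detectable at this depth (edgeR adjusted p = 0.353).

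Downstream of the receptors, TRADD and RIPK1 moved apart. TRADD, the adaptor of TNF receptor 1, stood at 19.96, 18.6 and 19.7 CPM in AHR siRNA and at 14.4, 12.6 and 13.5 CPM in control siRNA, a rise to 144% (log2 fold change 0.52, SE 0.10, edgeR adjusted p = 0.000204). RIPK1, the kinase that steers TNF signals towards survival or death, stood at 37.8, 36.6 and 37.3 CPM in AHR siRNA and at 44.0, 47.9 and 46.6 CPM in control siRNA. It fell to 80.6% (edgeR adjusted p = 0.00151) and lost its call with library totals alone (edgeR adjusted p = 0.0743). FADD, the adaptor that recruits caspase-8, averaged 8.87 ± 1.77 CPM in AHR siRNA and 9.73 ± 0.85 CPM in control siRNA (SD, n = 3 each; edgeR adjusted p = 0.453). Of the FADD exonic bases, 54.9% overlap AP000879.1 on the opposite strand, which was at 0 CPM in every library, so reads there may be missing from the FADD count. CFLAR, which encodes the caspase-8 decoy FLIP, averaged 87.2 ± 5.2 CPM in AHR siRNA and 87.8 ± 9.2 CPM in control siRNA (SD, n = 3 each; edgeR adjusted p = 0.917).

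Levels of different genes were compared per kilobase of exon (GENCODE 29, all annotated exons of a gene merged). In AHR siRNA cells CYCS was highest at 54.2 ± 4.0 CPM per kilobase, followed by BCL2L1 at 48.7 ± 1.0, TNFRSF10B at 47.4 ± 0.3 and MCL1 at 27.7 ± 0.6 (SD, n = 3 each). In control siRNA cells the order was CYCS at 56.3 ± 5.4, MCL1 at 45.7 ± 0.5, BCL2L1 at 42.3 ± 1.6 and BCL2L12 at 33.1 ± 4.1 CPM per kilobase (SD, n = 3 each). By these values MCL1 stood above BCL2L1 in the control cells and below it in AHR siRNA cells, with no overlap of the libraries in either group. BCL2L1 and TNFRSF10B overlapped in AHR siRNA cells. In control siRNA cells BCL2L12 overlapped TNFRSF10B at 31.3 ± 0.4 and BIRC5 at 30.2 ± 3.0 CPM per kilobase (SD, n = 3 each). Of the BCL2L12 exonic bases, 33.1% overlap IRF3 on the opposite strand. The order of MCL1 and BCL2L1 in the control cells is uncertain, since 43.0% of the BCL2L1 exonic bases are shared with ABALON. If reads there were left out of the count, the BCL2L1 level is understated. At the low end, DIABLO, TNFSF10, BCL2 and HRK were under 1 CPM per kilobase in both groups. The DIABLO level may be understated, since part of its exonic bases is shared with the counted genes B3GNT4 and AC048338.1. BCL2 was at 0.0625 CPM per kilobase in AHR siRNA and 0.0648 in control siRNA. Per-length levels are lowered for genes with many annotated exons, such as CFLAR with 22529 exonic bases.

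**Figure D3:**
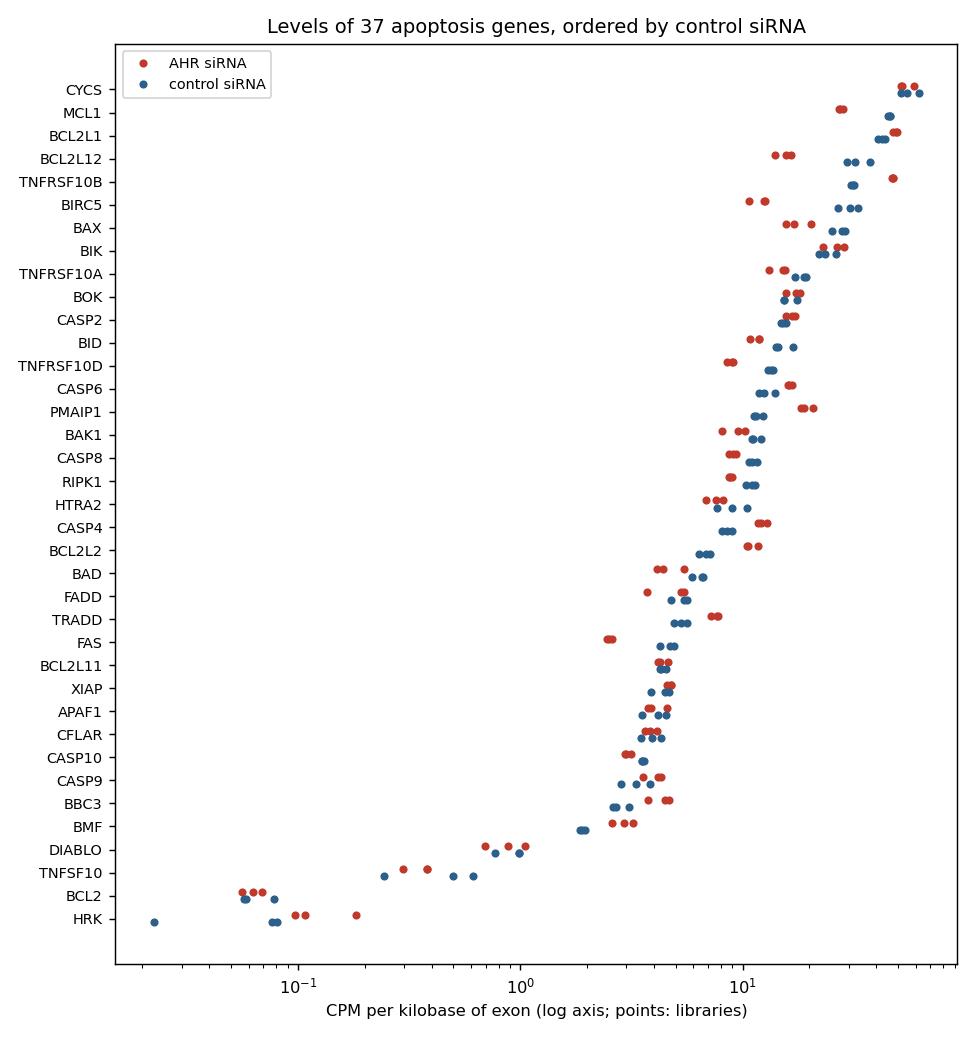
CPM per kilobase of exon on a log axis for all 37 apoptosis genes, ordered by the control siRNA mean, with 1 point per library (red for AHR siRNA, blue for control siRNA). CYCS leads in both groups, and MCL1 is at rank 4 in AHR siRNA and rank 2 in control siRNA.

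Ratios between partner genes within a library do not depend on the scaling between libraries, and 11 pairs were described without a test. The ratio of PMAIP1 to MCL1 counts was 0.386, 0.356 and 0.330 in AHR siRNA and 0.139, 0.131 and 0.125 in control siRNA, 2.71-fold higher in AHR siRNA. The ratio of TNFRSF10B to TNFRSF10D was 7.52, 8.11 and 7.70 in AHR siRNA and 3.54, 3.43 and 3.27 in control siRNA, 2.28-fold higher. In both pairs the first gene was called higher and the second lower. The ratio of BAX to BCL2L1 moved the other way, at 0.280, 0.320 and 0.250 in AHR siRNA and 0.515, 0.465 and 0.537 in control siRNA, 1.79-fold lower.

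The ratio of BBC3 to BCL2L1 was 1.33-fold higher and that of BAK1 to MCL1 1.34-fold higher in AHR siRNA, while that of BCL2L11 to BCL2L1 was 1.16-fold lower, all without overlap between the groups. TNFRSF10A to TNFRSF10D was 1.19-fold higher, and BAX to BCL2 was 1.51-fold lower, the second on the few counts of BCL2. The pairs CASP8 to CFLAR, DIABLO to XIAP and APAF1 to CASP9 overlapped between the groups. Pairs of a death-promoting gene over a survival gene thus lay above the control level in some cases and below it in others.

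**Figure D4:**
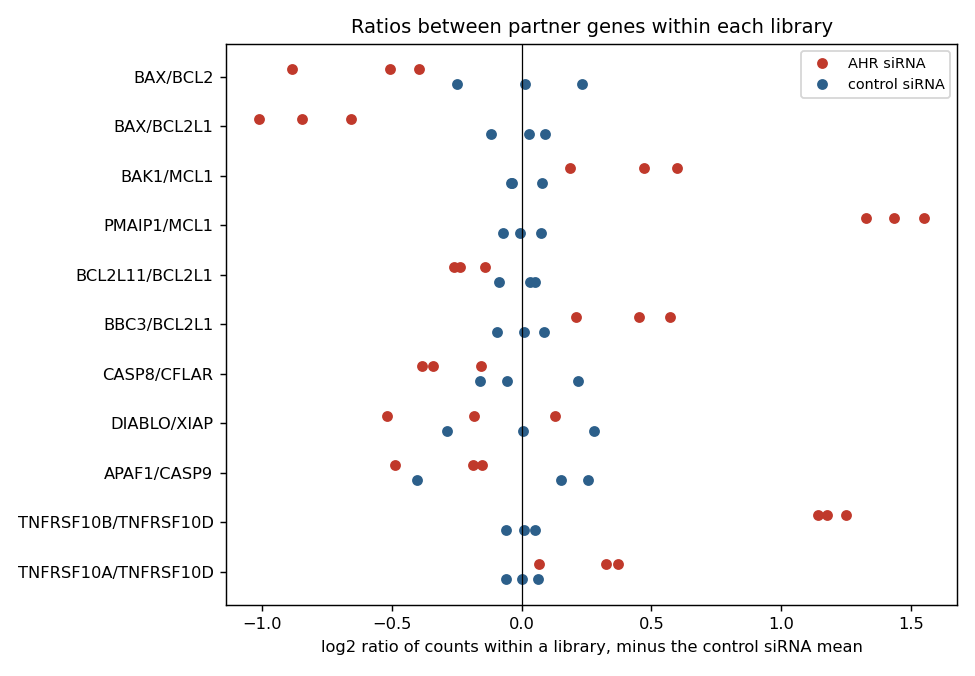
Log2 ratio of counts within each library for 11 pairs of partner genes, after subtracting the control siRNA mean of each pair (red, AHR siRNA; blue, control siRNA; 3 libraries each). PMAIP1/MCL1 and TNFRSF10B/TNFRSF10D lie 1.44 and 1.19 above the control mean on average and BAX/BCL2L1 lies 0.84 below it.

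Other genes of the same pathway, from a list of 58, were called lower more often than higher. Of 49 tested, 10 were higher (20.4%) and 24 lower (49.0%), against 30.0% and 30.1% of all tested genes. Together 69.4% were called, against 60.1% of all tested genes, and the median log2 fold change was -0.16. Of 14 tested BCL2 relatives and mitochondrial genes, 3 were higher and 8 lower: VDAC1, the main channel of the outer membrane, fell to 55.6% of control and BCL2L15 to 41.1%, while MOAP1, which activates BAX, rose to 164%. Of 11 tested caspases and caspase substrates, 1 was higher and 5 lower, among them the lamin gene LMNA at 51.5% of control. CASP1, CASP5 and CASP14 had at most 1 count in any library.

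Of 22 tested IAPs and TNF receptor genes, 6 were higher and 10 lower (72.7% called, against 60.1% of all tested genes). BIRC3, an IAP that ubiquitinates RIPK1, was at 5.83 ± 1.27 CPM in AHR siRNA and 57.9 ± 4.3 CPM in control siRNA (SD, n = 3 each; edgeR adjusted p = 9.95e-14). PEA15, which blocks FADD, fell to 44.7% and the NF-kB inhibitor TNFAIP3 to 53.1%. The decoy receptor gene TNFRSF11B rose to 8.45 CPM in AHR siRNA, against 3.05 CPM in control siRNA. TNFRSF10C, another decoy receptor for TRAIL, rose to 3.81 CPM in AHR siRNA, against 1.13 CPM in control siRNA, while TNFRSF10D fell. The TNFRSF10C values rest on 14 to 54 counts per library, and 39.3% of its exonic bases are shared with other annotated genes. FASLG, the ligand of FAS, was at 3.94 ± 0.53 CPM in AHR siRNA and 1.31 ± 0.50 CPM in control siRNA (SD, n = 3 each), and TNFRSF25, a death receptor, rose to 172%. Of the necroptosis genes, RIPK3 was at 0 in all 6 libraries, PGAM5 was called lower and MLKL did not pass the test.

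Of the 24 called genes, 15 kept their call under all 14 alternatives of scaling, filter, test and left-out library at the same threshold: 8 higher (BCL2L2, PMAIP1, BMF, BBC3, CASP4, CASP6, TNFRSF10B and TRADD) and 7 lower (MCL1, BCL2L12, BAX, BID, BIRC5, FAS and TNFRSF10D). Against a minimum fold of 1.5 (edgeR's glmTreat), BIRC5, BCL2L12, MCL1 and FAS passed.

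**Figure D5:**
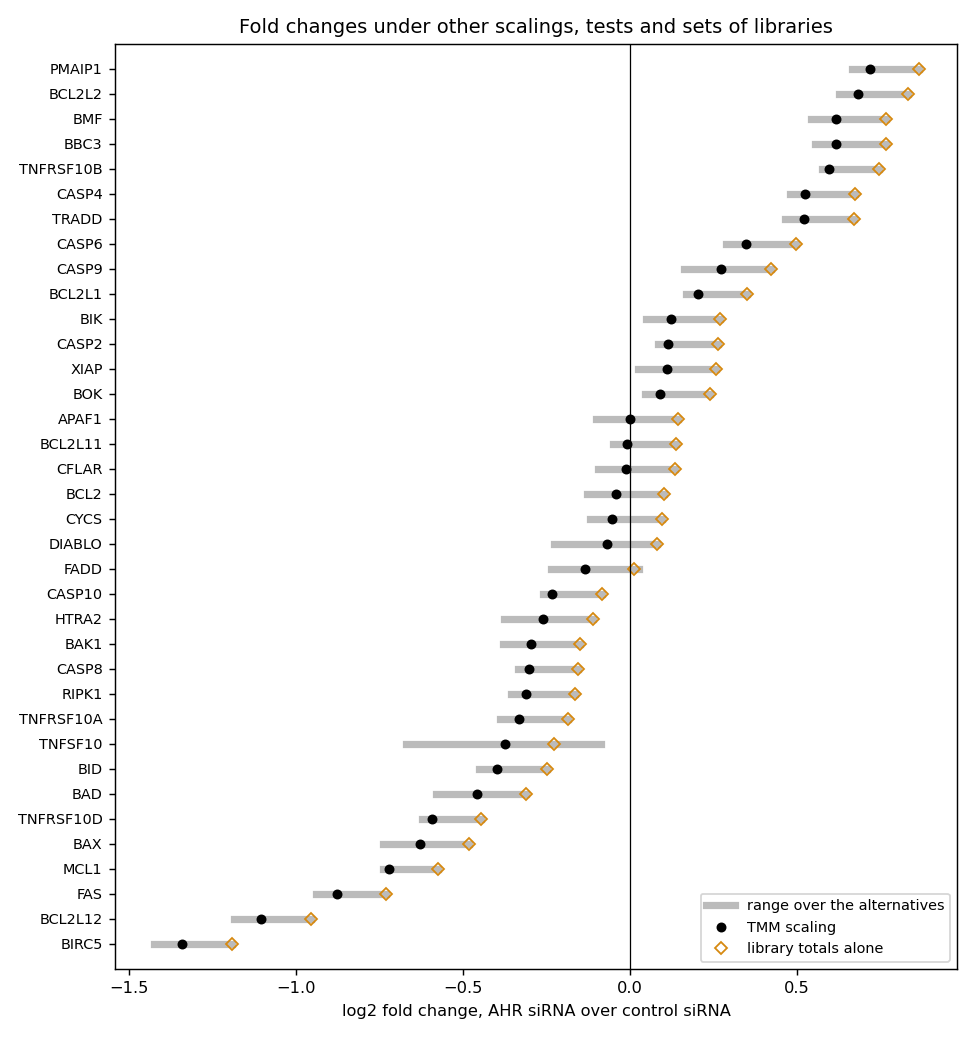
Log2 fold change of the 36 tested genes with TMM scaling (black points), with library totals alone (open diamonds) and over all alternatives (grey bars). Library totals move every gene to the right by about the same amount, and no called gene changes its sign.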

How the data were processed

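The authors deposited raw counts per gene, 1 table per library, holding 60483 versioned Ensembl IDs. The submitters' processing notes list HTSeq, TopHat and TopHat2 2.0.11 beside the builds GRCh37 and hg19, but state no roles, and the strand setting is unknown. IDs were named from a table of symbols and then from GENCODE 29. Shared exonic bases were summed over the overlapping genes, so a base shared with several genes counts each time. Counts were tested with edgeR 4.0.16 in R 4.3.3 (filterByExpr, TMM, glmQLFit and glmQLFTest, group as the only term, Benjamini-Hochberg over 14900 genes). SE is the log2 fold change divided by the square root of F. The tested counts worth 1 CPM were 12.1 to 14.5 per library. The same script was tested on simulated data. The members, lists and tests were chosen with earlier results of these data known. The text names all 37 members, AHR, up to 6 called genes per direction of the other pathway lists with the smallest p, at least 1 CPM and 1.5-fold, and up to 4 called genes of each context list (passenger complex, transcription factors) with the smallest p. PGAM5, MLKL, RIPK3, CASP1, CASP5, CASP14, the marker genes and the genes that overlap members are named outside this rule, after their values were seen. Alternatives used DESeq2 1.42.0, limma 3.58.1, other scalings, filters and thresholds, a replicate block, and each library left out. All 37 mitochondrial genes were listed at 0. Some genes of the other lists are not reported here.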

Additional observations from a re-analysis of the deposited data

How the results depend on the processing

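Against a minimum fold of 1.5 with edgeR's glmTreat, genes called higher numbered 1316 and genes called lower 1197, with 0 apoptosis genes higher and 4 lower, and 3 other pathway genes higher and 9 lower. The 0 compares with 2 (BCL2L2 and PMAIP1) at an unadjusted p under 0.05, and with 9 called higher by DESeq2 and 10 by limma-voom without a minimum fold. AHR was not called against that minimum (log2 fold change -0.50). With library totals alone, 14 of the 36 were called higher and 7 lower, beside 5885 higher and 3205 lower of all tested genes. Leaving out 1 library gave 8 to 11 of the 36 higher and 11 to 14 lower, beside 3985 to 4470 higher and 4065 to 4523 lower of all tested genes. Deviations of same-numbered libraries from their group means correlated weakly or not at all (r = 0.193, -0.0405 and 0.154). Not every library correlated best with its own number, so the numbers were not taken as pairs, although some shared structure is possible. With the replicate number as a block, genes called higher numbered 4788 and genes called lower 4810, and 10 of the 36 were higher and 14 lower.

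No called gene of the 36 changed sign in any alternative. Log2 fold changes of genes that were not called did, with upper-quartile factors and with library totals alone: BCL2 (0.035 and 0.10), BCL2L11 (0.070 and 0.14), APAF1 (0.077 and 0.15), CYCS (0.025 and 0.096), DIABLO (0.013 and 0.081) and CFLAR (0.068 and 0.14), and FADD with library totals alone (0.013). APAF1 was at 0.0071 with at least 1 CPM in 3 libraries and 0.00013 with limma-voom. Leaving out 1 library gave ranges of -0.13 to 0.10 for BCL2, -0.051 to 0.019 for BCL2L11, -0.10 to 0.073 for APAF1, -0.12 to 0.016 for CYCS, -0.23 to 0.081 for DIABLO, -0.24 to 0.027 for FADD and -0.095 to 0.059 for CFLAR. The cause was not tested. Depth limits BCL2, HRK and TNFSF10, at 2 to 31 counts per library.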

Other observations

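Transcription factors known to induce genes of the apoptosis machinery also moved in both directions. Of 14 tested, 5 were higher and 8 lower (92.9% called, against 60.1% of all tested genes, of which 30.0% were higher and 30.1% lower). FOXO4, a factor that induces BH3-only genes in other cells, averaged 14.8 CPM in AHR siRNA and 6.82 CPM in control siRNA, or 217% of control (edgeR adjusted p = 2.98e-07). NFKB1, a subunit of NF-kB, was at 57.0% of control (edgeR adjusted p = 6.65e-08) and the cell cycle factor E2F1 at 57.1% (edgeR adjusted p = 7.74e-08).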
